A study of Rattus norvegicus with 6 samples.

Results

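Fibroblast growth factors (FGFs) and their receptors were examined in rat Schwann cells, the glia of peripheral nerve, in which the kinase Raf can be switched on with tamoxifen. The family was taken as every probe set annotated to 1 of 10 genes: the ligands Fgf1, Fgf2, Fgf5, Fgf7, Fgf9, Fgf10 and Fgf18, and the receptors Fgfr1, Fgfr2 and Fgfr3. The array holds 19 such probe sets, among 31099 in all, and the 10 genes are among 14217 that a probe set names. Of the 19, 10 belong to ligands and 9 to receptors. A probe set is a group of short probes that together report 1 transcript. The 10 genes were chosen by name and not by a measured value, though with earlier results of these data known. All 19 probe sets were tested, with no filter on low values.

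The tamoxifen group (3 arrays, titled RafERtx+) was primary Schwann cells from rat sciatic nerve that carried an inducible RafER allele and had received tamoxifen for 24 h. The vehicle group (3 arrays, titled RafERtx-) was cells with the same allele that had received ethanol. Both groups shared the RafER allele, the coated dishes and the minimal medium before treatment. RafER joins Raf to the ligand-binding domain of an estrogen receptor, so that the kinase is held inactive until tamoxifen binds. The sources used here do not name the promoter that drives the allele. No cells lacking RafER were analysed here, and effects of tamoxifen and of Raf cannot be told apart. The design text speaks of independent experiments in culture, whereas the source labels speak of treated rats, and the design text was followed. Nothing further in the labels says how separate the cultures were, so p-values measure only the spread between these arrays.

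Secreted FGFs bind receptor tyrosine kinases together with heparan sulfate, a sulfated sugar chain of the cell surface and matrix. The activated receptor phosphorylates the docking protein FRS2, which recruits GRB2 and SOS and so switches on RAS, RAF, MEK and ERK. Sprouty proteins and the phosphatase DUSP6 are induced by this pathway and restrain it. FGF2 is a long-known mitogen of cultured Schwann cells. Whether the cells on these arrays answer an FGF was not tested. Tamoxifen acts here on RafER, which stands downstream of the receptors.

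The values are log2 expression values, on which 1 unit is a 2-fold difference, as made by the RMA procedure. The correlation over probe sets was 0.984 to 0.995 between arrays of a group and 0.934 to 0.966 between groups. The gap between 3' and 5' probe sets, averaged over the rat controls beta-actin, GAPDH and hexokinase, is larger where 5' signal is weak. It was 0.84 log2 units on vehicle array 1 and lay between 0.16 and 0.27 on every other array. Of 9 measured Schwann cell markers 8 lay above the median probe set level of 6.37 in both groups, and Fabp7 did not (4.45 with tamoxifen and 4.5 with vehicle). S100b had a log2 level of 12.35 ± 0.45 with tamoxifen and 13.11 ± 0.08 with vehicle, and Sox10 had 10.68 ± 0.20 with tamoxifen and 11.58 ± 0.72 with vehicle (SD, n = 3). Of these markers 2 fell, S100b and Ngfr, and 7 did not pass, of which Sox10 passed as lower with the array number as a block (-0.90, adjusted p = 0.03). In such bulk samples, fewer cells of a type and less RNA per cell cannot be told apart.

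Of the FGF ligands, Fgf2 rose 8.31-fold after tamoxifen and Fgf5 fell 4.71-fold, and no other ligand and no receptor passed the test. The test was limma's two-sided moderated test over 31042 probe sets, with an adjusted p threshold of 0.05. In the family 1 of 19 probe sets was higher and 1 was lower (10.5%). Among all probe sets 24.4% passed, 11.5% as higher and 12.9% as lower. Counted as genes by their brightest probe set, 1 of 10 was higher and 1 was lower, against 13.9% and 17.3% of all genes (31.2% in either direction). The median log2 change of the 19 probe sets was 0.01, against 0.03 over all probe sets. The tamoxifen and vehicle arrays did not overlap for 5 of the 19 probe sets, against 42.4% of all probe sets, and for 3 of the 10 genes, against 49.1% of all genes. Those 5 were the single probe sets of Fgf2 and Fgf5 and all 3 of Fgf1.

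**Figure D1:**
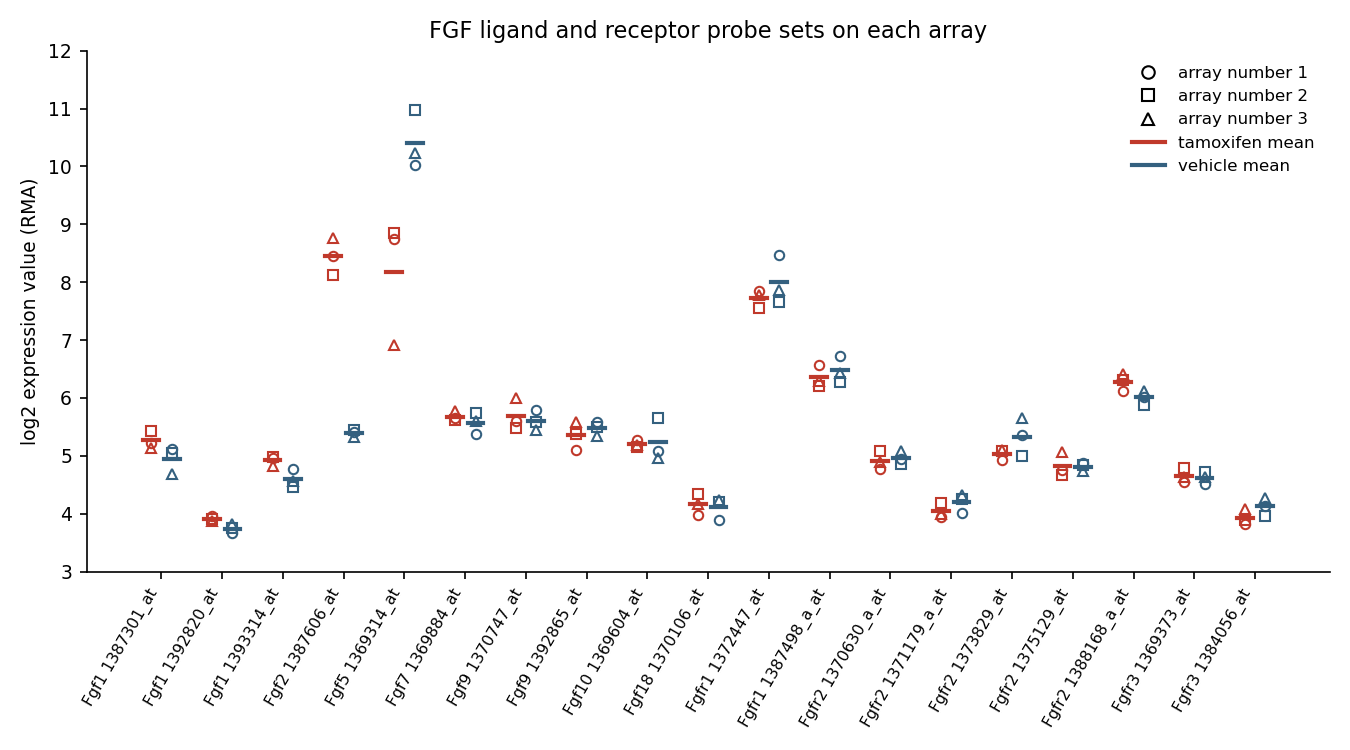
Log2 expression value (y axis) of each of the 19 FGF ligand and receptor probe sets (x axis) on every array. Red symbols are tamoxifen arrays and blue symbols vehicle arrays, the symbol shape gives the array number, and bars are group means. Fgf2 is higher and Fgf5 lower on all 3 tamoxifen arrays, with wide gaps, while most other probe sets lie between 4 and 6 in both groups.

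Fgf2 encodes basic FGF, a ligand without a classical signal peptide that binds several FGF receptors. Its probe set, 1387606_at, had log2 levels of 8.46, 8.12 and 8.76 on tamoxifen arrays 1, 2 and 3, against 5.41, 5.44 and 5.33 on vehicle arrays 1, 2 and 3. The lowest tamoxifen array stood 2.68 log2 units above the highest vehicle array. The group means were 8.45 ± 0.32 with tamoxifen and 5.39 ± 0.06 with vehicle (SD, n = 3), and the tamoxifen arrays spread more widely than the vehicle arrays. The log2 change was 3.06 ± 0.16 (SE), with a 95% confidence interval of 2.67 to 3.44 (limma, adjusted p = 0.000156). Under the 15 alternative settings tried for single probe sets the change stayed between 2.90 and 3.22, and the adjusted p did not exceed 0.00409. The array holds no other probe set annotated to Fgf2 alone, so no internal repeat of this value exists.

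Fgf5 encodes a secreted ligand that is best known as a brake on hair growth in mammals. Its probe set, 1369314_at, had log2 levels of 8.75, 8.86 and 6.91 on tamoxifen arrays 1, 2 and 3, against 10.03, 10.97 and 10.23 on vehicle arrays 1, 2 and 3. The groups did not overlap, and tamoxifen array 3 lay well below the other tamoxifen arrays. The means were 8.17 ± 1.09 with tamoxifen and 10.41 ± 0.50 with vehicle (SD, n = 3). The log2 change was -2.24 ± 0.54 (SE), with a 95% confidence interval of -3.52 to -0.95 (limma, adjusted p = 0.0253). Between arrays of the same number the differences were -1.28, -2.12 and -3.31 log2 units for numbers 1, 2 and 3. It no longer passed when vehicle array 2 was left out (-1.95, adjusted p = 0.0762), nor when vehicle array 3 (-2.33, adjusted p = 0.0557) or both arrays numbered 1 (-2.71, adjusted p = 0.0505) were. It held without tamoxifen array 3, with a smaller log2 change of -1.61. Fgf5, too, has a single probe set.

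Since Fgf2 and Fgf5 carry the changes in the family and moved in opposite directions, the 250 bases before the annotated start of each are shown, as given by RefSeq on rat assembly GRCr8. The Fgf2 window lies at chr2:122164204-122164453 on the plus strand and the Fgf5 window at chr14:11650244-11650493 on the minus strand, and both are written 5′ to 3′ along the gene. Capitals mark matches to 6 short motifs that were searched as letters.
Fgf2: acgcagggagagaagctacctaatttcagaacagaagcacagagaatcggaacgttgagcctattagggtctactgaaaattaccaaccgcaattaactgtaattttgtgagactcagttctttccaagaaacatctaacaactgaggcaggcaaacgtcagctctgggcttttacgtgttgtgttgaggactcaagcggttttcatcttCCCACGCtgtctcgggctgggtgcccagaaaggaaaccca
Fgf5: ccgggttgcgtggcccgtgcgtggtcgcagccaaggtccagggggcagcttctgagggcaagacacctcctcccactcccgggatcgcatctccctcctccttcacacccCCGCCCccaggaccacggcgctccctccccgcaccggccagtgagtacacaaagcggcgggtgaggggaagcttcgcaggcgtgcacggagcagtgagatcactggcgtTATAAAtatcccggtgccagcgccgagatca

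The motifs were TGANTCA (AP-1), CCGGAA (the core bound by ETS factors), GCGTGGG (EGR), TGACGTCA (CRE) and GGGCGG (SP1), each on both strands, and TATAAA on the gene's strand only. No match in these windows overlapped another. The Fgf2 window held 1 match, to the EGR letters on the opposite strand, from 40 to 34 bases before the start, and 3.88% of 27455 such windows in the rat table hold those letters. The Fgf5 window held 1 match to the SP1 letters, which 32.4% of windows hold, and 1 to the TATAAA letters, from 31 to 26 bases before the start, which 8.38% hold. Neither window held the AP-1 letters (in 6.36% of windows), the ETS letters (13.4%) or the CRE letters (1.7%). The windows also differed in base composition: G and C made up 46.8% of the Fgf2 window and 66.8% of the Fgf5 window, against a median of 52% over all windows. A match of letters is a description and not a binding site, and letters that are absent here say nothing about the factor. Of the 10 genes 9 were in the table, and Fgfr1 was not used here. Members that did not pass held such letters too. The EGR letters were also in the Fgfr3 window, and the SP1 letters in those of Fgf18, Fgfr2 and Fgfr3.

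The genes whose profile over the 6 arrays was most like that of Fgf2 were Slc4a7, a bicarbonate cotransporter gene, Dlx1, a homeobox gene, and Jag1, which encodes a Notch ligand. Likeness was the root mean square difference between log2 values centred on their mean, over 20565 other named probe sets, and it was 0.11, 0.12 and 0.13 log2 units for these 3 genes. Their log2 changes were 3.08 ± 0.19, 2.93 ± 0.10 and 2.89 ± 0.16 (SE). The nearest to Fgf5 were Mertk, a receptor tyrosine kinase gene, Pcdh20, a protocadherin gene, and Ankrd1, which encodes an ankyrin repeat protein, at 0.19, 0.23 and 0.26 log2 units. Their log2 changes were -2.39 ± 0.48, -2.15 ± 0.48 and -2.35 ± 0.37 (SE). All 3 were also lowest on tamoxifen array 3, with log2 levels of 6.14 for Mertk, 7.82 for Pcdh20 and 6.19 for Ankrd1. The genes were chosen for likeness over these same 6 arrays, so similar changes and a low tamoxifen array 3 follow from the choice. These lists describe the profiles and were not tested.

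**Figure D2:**
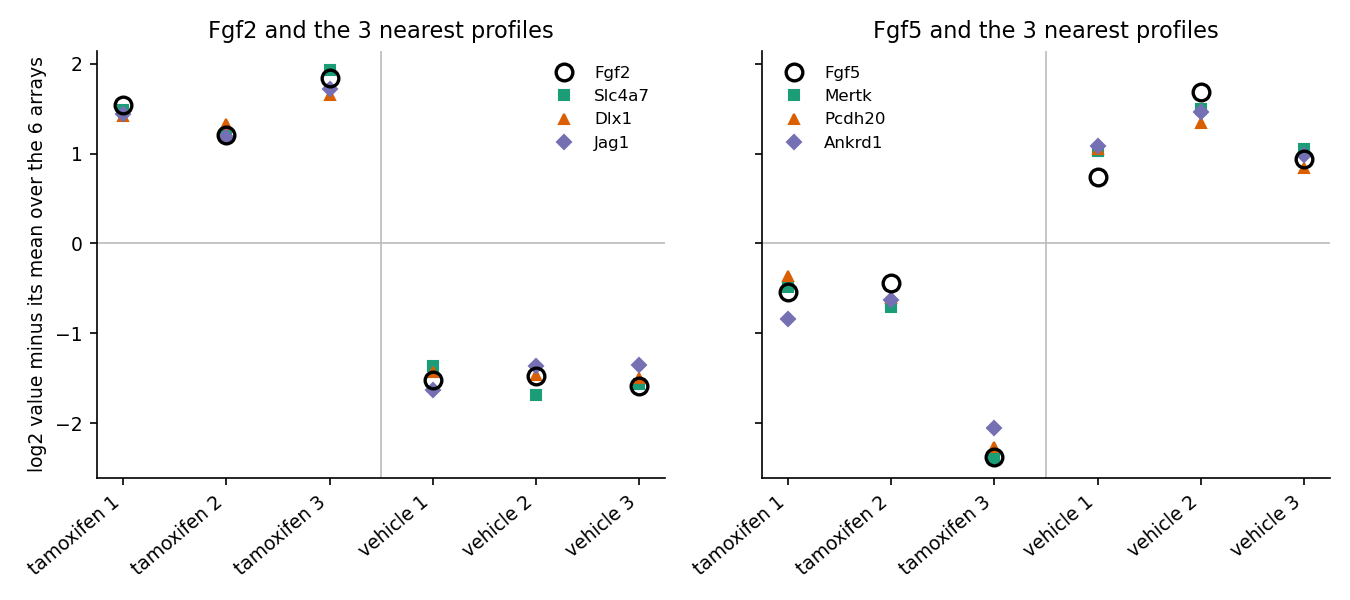
Log2 value minus its mean over the 6 arrays (y axis) on each array (x axis, tamoxifen left of vehicle) for Fgf2 with Slc4a7, Dlx1 and Jag1 (left), and for Fgf5 with Mertk, Pcdh20 and Ankrd1 (right). Open circles are the FGF genes and filled symbols their 3 nearest profiles, chosen for likeness on these arrays. The shared drop on tamoxifen array 3 in the right panel follows from that choice.

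Fgf1 encodes acidic FGF, which like FGF2 has no classical signal peptide and can bind all the main FGF receptors. Each of its 3 probe sets lay higher on every tamoxifen array than on any vehicle array, but by little, and none passed the test. Probe set 1393314_at had log2 levels of 4.97, 4.98 and 4.82 on tamoxifen arrays 1, 2 and 3, against 4.78, 4.46 and 4.56 on vehicle arrays 1, 2 and 3, and the gap between the groups was 0.04 units. Its log2 change was 0.32 ± 0.11 (SE), with a 95% confidence interval of 0.06 to 0.58 (limma, adjusted p = 0.0808). This value passed without vehicle array 1, the array of weak 5' signal (0.41, adjusted p = 0.034), with array weights (0.39, adjusted p = 0.0253), and with the 3' to 5' gap as a covariate (0.42, adjusted p = 0.0316). Probe set 1387301_at had a log2 change of 0.31 ± 0.14 (adjusted p = 0.167) and 1392820_at one of 0.17 ± 0.08 (adjusted p = 0.206). All 3 probe sets share the same RNA, so they are not independent repeats.

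The other ligands showed no change past the threshold. Fgf7 and Fgf10 encode mesenchymal growth factors that act on epithelia through a splice form of Fgfr2. The log2 levels of Fgf7 were 5.65, 5.61 and 5.77 on tamoxifen arrays 1, 2 and 3 and 5.38, 5.74 and 5.60 on vehicle arrays 1, 2 and 3, a change of 0.10 ± 0.12 (SE, adjusted p = 0.579). Fgf10 had 5.27, 5.15 and 5.18 with tamoxifen and 5.08, 5.65 and 4.97 with vehicle, a change of -0.03 ± 0.18 (adjusted p = 0.919). In both genes the groups overlapped, and the highest value was that of tamoxifen array 3 for Fgf7 and vehicle array 2 for Fgf10.

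Fgf9 encodes a ligand first isolated as a growth factor for glia. Its probe set 1370747_at had log2 levels of 5.60, 5.49 and 6.0 with tamoxifen and 5.80, 5.58 and 5.45 with vehicle, a change of 0.09 ± 0.16 (SE, adjusted p = 0.756). Probe set 1392865_at differed in sign, with a change of -0.12 ± 0.14 (adjusted p = 0.627). Fgf18, a ligand known from cartilage and bone, had log2 levels of 3.98, 4.35 and 4.17 with tamoxifen and 3.90, 4.20 and 4.24 with vehicle, a change of 0.05 ± 0.14 (adjusted p = 0.832). For both genes the groups overlapped.

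The receptor genes also did not pass. Fgfr1 encodes the receptor tyrosine kinase that answers most FGFs. Its brighter probe set, 1372447_at, had log2 levels of 7.86, 7.56 and 7.78 on tamoxifen arrays 1, 2 and 3, against 8.47, 7.66 and 7.87 on vehicle arrays 1, 2 and 3. The groups overlapped, and the highest value was that of vehicle array 1. Its log2 change was -0.27 ± 0.21 (SE), with a 95% confidence interval of -0.78 to 0.24 (limma, adjusted p = 0.423), and with the 3' to 5' gap as a covariate it was 0.01 (adjusted p = 0.969). The other probe set, 1387498_a_at, had a change of -0.12 ± 0.15 (adjusted p = 0.636).

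Fgfr2, the receptor gene whose splice forms differ in the ligands they bind, had 5 probe sets, with log2 changes from -0.30 to 0.27. The brightest, 1388168_a_at, had log2 levels of 6.12, 6.32 and 6.41 with tamoxifen, against 6.02, 5.88 and 6.13 with vehicle. The lowest tamoxifen value lay just under the highest vehicle value. Its log2 change was 0.27 ± 0.11 (SE, adjusted p = 0.134), and that of 1373829_at was -0.30 ± 0.17 (adjusted p = 0.267), so the probe sets of Fgfr2 did not share a direction. The sources used here do not say which splice forms each probe set reports. Fgfr3, a receptor gene known for restraining bone growth, had changes of 0.04 ± 0.10 (1369373_at, adjusted p = 0.806) and -0.20 ± 0.12 (1384056_at, adjusted p = 0.3).

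Across the 17 probe sets that did not pass, log2 changes ran from -0.30 to 0.32 and adjusted p from 0.0808 to 0.973. Their 95% confidence intervals reached no lower than -0.78 and no higher than 0.65 log2 units, that is 0.58-fold to 1.57-fold of vehicle. The mean levels of 15 of the 19 probe sets were below 6.37, the median over all probe sets. The table has no detection calls, so such a level can be background, and RMA compresses folds at low levels. The intervals cover the array values only.

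**Figure D3:**
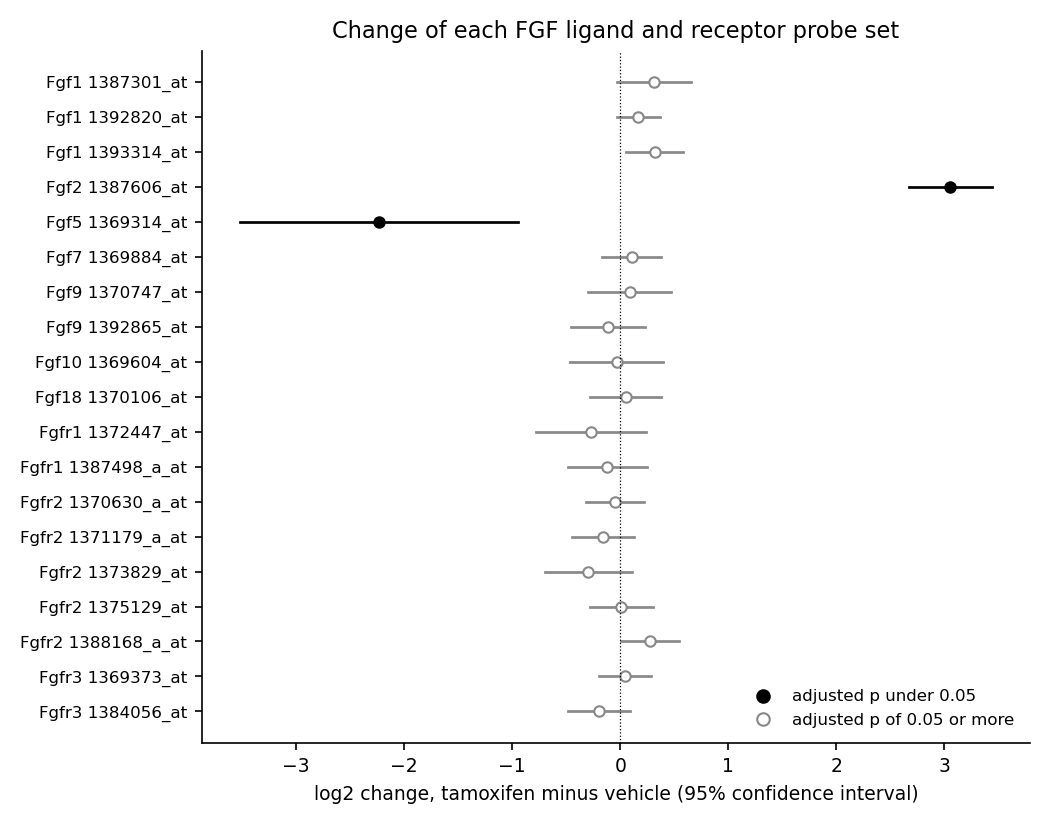
Log2 change, tamoxifen minus vehicle (x axis), with its 95% confidence interval for each of the 19 probe sets (y axis). Filled black points passed an adjusted p of 0.05: Fgf2 at 3.06 and Fgf5 at -2.24. The other 17, open and grey, lie between -0.30 and 0.32.

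Other genes of the FGF pathway were taken from 7 lists, of which 67 of 77 genes were measured. Of these, 11 rose, 8 fell and 48 did not pass, so that 28.4% passed, against 31.2% of all genes. Their median log2 change was 0.04, against 0.01 over all genes. The lists are given in order from ligand to target.

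Among ligands outside the family of 10, none of 11 measured secreted FGF genes passed (median log2 change 0.02). None of the 4 genes of intracellular FGF homologous factors, Fgf11 to Fgf14, which bind sodium channels and not FGF receptors, passed either (median 0.04). Of 9 measured further receptors, co-receptors and binding proteins, none rose and 2 fell. These were Fibp, whose product binds FGF1 inside cells, with a log2 change of -0.86 ± 0.19 (SE, adjusted p = 0.0179), and Fgfbp3, whose product carries FGFs from the matrix, with -0.35 ± 0.10 (adjusted p = 0.044). The call of Fgfbp3 was lost with the array number as a block (adjusted p = 0.0806) with array weights (0.0511), with the 3' to 5' covariate (0.113) and without any 1 of the 6 arrays (log2 change -0.41 to -0.29). Fibp no longer passed when vehicle array 2 (-0.83, adjusted p = 0.0551) or both arrays numbered 1 (-0.84, adjusted p = 0.0734) were left out, nor with the 3' to 5' covariate (-0.78, adjusted p = 0.0517).

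Of 19 measured genes for the synthesis and editing of heparan sulfate, 1 rose and 2 fell (median log2 change -0.12). Extl3 did not pass on its brighter probe set (0.33), while its dimmer one passed as higher (1.15). With the array number as a block 5 fell, since Hs2st1 (-0.50, adjusted p = 0.0139), Hs3st1 (-0.75, 0.00692) and Sulf2 (-0.80, 0.0318) then passed too. Hs2st1 and Hs3st1 encode sulfotransferases of the chain, and Sulf2 encodes a sulfatase that removes sulfate from it. Each of the 3 was lower with tamoxifen in all 3 pairs of equal number, while the groups overlapped. Glce, which encodes the epimerase that converts glucuronic to iduronic acid in the chain, had log2 levels of 8.66, 8.85 and 8.68 with tamoxifen, against 7.75, 7.47 and 7.37 with vehicle. It rose by 1.20 ± 0.12 (SE, adjusted p = 0.00141). Ext1 and Ext2 encode the paired enzymes that build the chain. Ext1 fell by 0.71 ± 0.12 (adjusted p = 0.00734), while its dimmer probe set, with -0.42 ± 0.18, did not pass. Ext2 fell by 0.56 ± 0.12 (adjusted p = 0.0158), but did not pass when vehicle array 2 (adjusted p = 0.0528), tamoxifen array 1 (0.0532) or tamoxifen array 2 (0.0563) was left out.

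Adaptors and effectors of the receptors went both ways, with 2 of 15 higher and 4 lower (median log2 change -0.05). Gab1, a docking protein that recruits PI3 kinase and SHP2, had log2 levels of 10.54, 10.12 and 9.63 with tamoxifen, against 12.21, 11.93 and 12.04 with vehicle. It fell by 1.96 ± 0.23 (SE, adjusted p = 0.00196). Frs3, a docking protein related to FRS2, had 5.09, 5.5 and 5.25 with tamoxifen, against 6.68, 6.37 and 6.41 with vehicle, and fell by 1.21 ± 0.14 (adjusted p = 0.00201). Both groups of 3 arrays stood clear of each other for these genes. Frs2 itself had a log2 change of -0.56 ± 0.09 (adjusted p = 0.00616), while its dimmer probe set, with 0.32, did not pass. Cblb, a gene related to Cbl, had -0.60 ± 0.12 (adjusted p = 0.0144). Grb2 did not pass on its brightest probe set (-0.22), but 1 of its dimmer ones (-0.65 and -0.17) did. In the other direction, Cbl, a ubiquitin ligase that takes activated receptors out of service, rose by 1.04 ± 0.17 (adjusted p = 0.00616), and its 3 dimmer probe sets rose by 1.31, 1.38 and 1.6. The adaptor gene Shc1 rose by 0.71 ± 0.16 (adjusted p = 0.0201), which did not pass when vehicle array 2 (adjusted p = 0.0642) or both arrays numbered 1 (0.0613) were left out.

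Of 6 measured feedback inhibitors, 5 rose, none fell and Spry3 did not pass (median log2 change 1.24), while 13.9% of all genes were higher. Spred1, Spred2 and Il17rd, also on the list, were not measured. Dusp6 and Spry4 had the largest log2 changes, 4.53 ± 0.08 and 3.19 ± 0.16 (SE). Spred3, of the Sprouty-related family, had log2 levels of 8.19, 7.98 and 8.28 with tamoxifen, against 6.56, 6.54 and 6.58 with vehicle, and rose by 1.59 ± 0.10 (adjusted p = 0.000302), while its dimmer probe set, with a change of 0.19, did not pass. Spry1 rose by 0.90 ± 0.10 (adjusted p = 0.00187) and Spry2 by 0.80 ± 0.18 (adjusted p = 0.0184).

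The 3 ETS factors that FGF signalling induces in many tissues all rose (median log2 change 0.84), against 13.9% of all genes that were higher. None of the 3 lay above the median level of 6.37 in both groups, and lower levels can be background. Etv5 had log2 levels of 8.36, 8.0 and 8.15 with tamoxifen, against 4.80, 4.69 and 4.33 with vehicle, a rise of 3.56 ± 0.16 (SE, adjusted p = 9.31e-05), and its dimmer probe set rose by 0.51. Etv4 rose by 0.84 ± 0.08 (adjusted p = 0.00112), and by 1.34 on its dimmer probe set. Etv1 rose by 0.82 ± 0.10 (adjusted p = 0.00232), and its other 4 probe sets rose by 0.48 to 1.92. The mean log2 levels on the brightest probe sets were low. Etv4 had 5.38 with tamoxifen and 4.54 with vehicle, and Etv1 had 6.35 with tamoxifen and 5.54 with vehicle. With 1 contrast these are the same arrays as for Fgf2 and Fgf5, and changes that follow an FGF receptor and changes that follow RafER cannot be told apart.

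**Figure D4:**
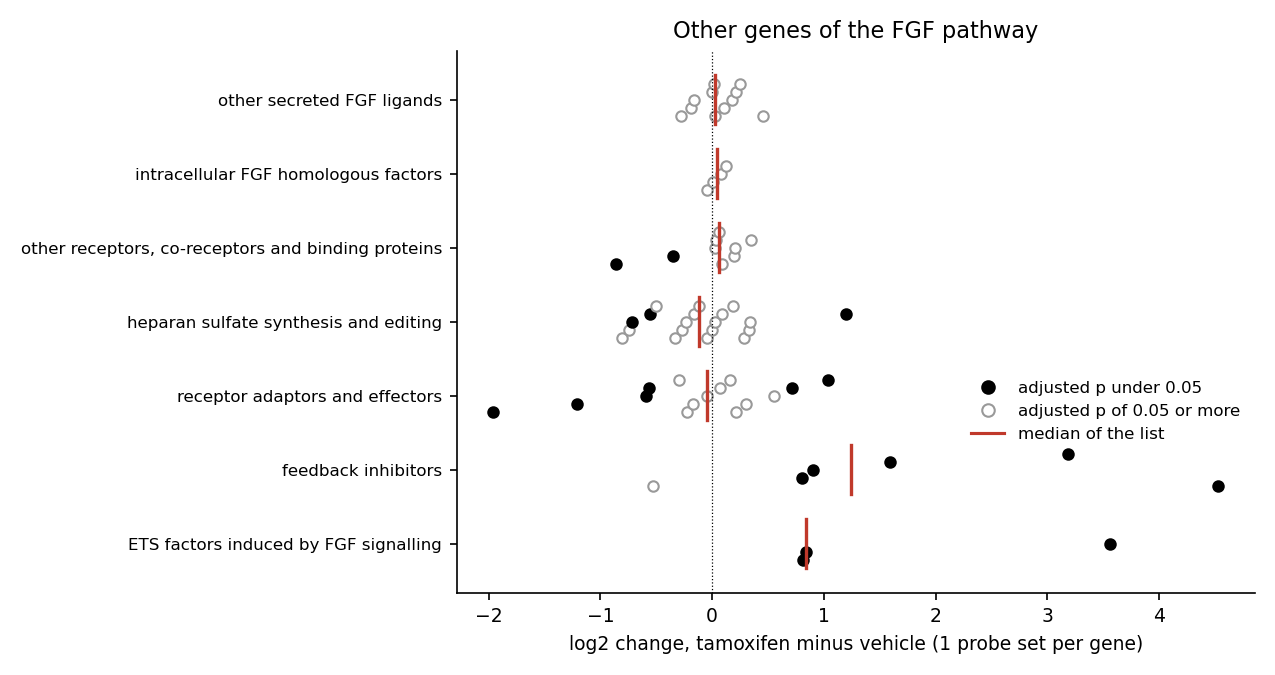
Log2 change, tamoxifen minus vehicle (x axis), of 67 other genes of the FGF pathway in 7 lists (y axis), each by its brightest probe set. Filled points passed an adjusted p of 0.05 and red bars are list medians. The feedback inhibitors (median 1.24) and ETS factors (0.84) lie to the right, and the ligands around 0.

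Markers of other cell types were read beside these values. Of 11 fibroblast markers 3 rose and 3 fell, and their mean log2 level was 7.44 to 7.55 on tamoxifen arrays and 7.48 to 7.60 on vehicle arrays. Col3a1, Col1a1 and Col1a2 fell and Fbln1, Pdgfra and Pi16 rose, and the calls of Col1a2 (adjusted p = 0.053) and Pi16 (0.0736) were lost with the array number as a block. Postn had 13.58 with tamoxifen and 13.19 with vehicle, Col1a2 had 12.80 with tamoxifen and 13.26 with vehicle, and Col1a1 had 11.92 with tamoxifen and 13.15 with vehicle. Dcn had 4.25 with tamoxifen and 4.05 with vehicle, and Lum 3.43 with tamoxifen and 3.44 with vehicle. The mean levels of 3 of the 11 lay above 6.37 in both groups. None of 7 macrophage, 5 endothelial, and 5 smooth muscle and pericyte markers passed, though Cspg4 of the last list did with the block (0.39, adjusted p = 0.0457). Their mean log2 levels were 5.03 to 5.13, 4.68 to 4.77 and 5.72 to 5.88 on tamoxifen arrays, and 4.95 to 5.03, 4.61 to 4.69 and 5.55 to 5.68 on vehicle arrays. Of the macrophage, endothelial, and smooth muscle and pericyte markers, only Acta2 lay above 6.37 in both groups. It had 7.52 with tamoxifen and 7.53 with vehicle. The part of these other cell types in the changes of Fgf2 and Fgf5 was not tested.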

How the data were processed

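RNA of 3 tamoxifen and 3 vehicle cultures was measured on Affymetrix rat arrays. The deposited table gives 1 log2 value per probe set and array, made with RMA per the submitters' processing notes, which name no version. The number of arrays limits the precision. Genes were named from the platform annotation, and all 19 FGF probe sets matched RefSeq by Entrez identifier. The 57 manufacturer controls were left out. The difference, tamoxifen minus vehicle, was fitted on all 6 arrays with limma 3.58.1 (lmFit, eBayes; R 4.3.3), and p was adjusted by Benjamini-Hochberg over 31042 probe sets. No exact permutation test was used, since with 3 against 3 arrays its smallest p is 0.1. Per gene, the probe set with the highest mean was taken. The procedure was also run on simulated data with independent noise, no pairing and fewer changed probe sets than passed here. That run therefore does not test it under the conditions of these arrays.

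The members, lists and alternatives were chosen with earlier results of these data known. All members were named, and from each pathway list up to 4 genes past the threshold, those of largest change. Frs2, Cblb, Spry2, Spry3, Grb2, Extl3 and Fgf11 to Fgf14 were named besides. Hs2st1, Hs3st1, Sulf2 and Gab2 did not pass the main test and were named since they passed with the array number as a block. To these the 3 nearest profiles of the strongest rise and fall were added. After subtraction of group means, arrays with the same number correlated at 0.26, 0.20 and 0.28. Arrays of different group and number correlated at -0.27 to -0.04. That all 3 same-number values were above 0.1 was taken as pairing. This rests on the data, since the labels do not say what the number marks. The main fit did not use this number, and the fit with it as a block was an alternative. So were leaving out arrays, other scalings, leaving out dim probe sets (mean under 6), a variance trend, array weights, a covariate for the 3' to 5' gap and other choices of probe set.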

Additional observations from a re-analysis of the deposited data

How the results depend on the processing

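The rise of Fgf2 passed under all 15 alternatives run for it, from 2.90 to 3.22 log2 units without 1 array or both numbered 1. The fall of Fgf5 kept its direction under all 15 and lost its call under 3, with -2.71 to -1.61 when arrays were left out (adjusted p 0.0117 to 0.0762 over all alternatives). Leaving out arrays gave 1 to 3 family probe sets and 1 to 2 family genes past the threshold, and the other alternatives 2 to 3 and 2. With the replicate block, which takes arrays of the same number as pairs, Fgf2 changed by 3.06 (adjusted p = 0.000848) and Fgf5 by -2.24 (adjusted p = 0.0117), and the calls of Fgfbp3, Col1a2 and Pi16 were lost, while Bmp3, Sox10, Hs2st1, Hs3st1, Sulf2, Gab2 and Cspg4 passed. The block gave 22 pathway genes past the threshold, against 19 without it, and alternatives gave 14 to 22. Over all probe sets 7578 passed, and 5095 to 8277 under the alternatives.

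Signs turned only for family probe sets that did not pass. With the 3' to 5' covariate Fgf7 was -0.0092, Fgf18 -0.0759, Fgfr1 0.0084 and 0.0384, and Fgfr3 (1369373_at) -0.0282. That probe set was -0.0068 with quantile normalization and -0.0035 with cyclic loess. Fgfr2 (1375129_at) was -0.0291 with array medians subtracted, -0.0492 with quantile normalization, -0.0425 with cyclic loess and -0.0365 with array weights. Leaving out arrays gave -0.0648 to 0.23 and -0.23 to 0.0683 for Fgf9, -0.17 to 0.18 for Fgf10, -0.0552 to 0.15 for Fgf18, -0.23 to 0.0055 for Fgfr1 (1387498_a_at), -0.13 to 0.0216 and -0.11 to 0.0899 for Fgfr2 (1370630_a_at and 1375129_at) and -0.0196 to 0.0956 for Fgfr3 (1369373_at). The cause was not tested. With the filter on dim probe sets, 5 of the 19 probe sets are left.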

Other observations

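The genes next to Fgf5 and Fgf2 on rat assembly GRCr8 were read after the values of both were known, as the 4 nearest named protein-coding genes of each. Beside Fgf5, Antxr2, an anthrax toxin receptor gene, had a log2 change of -2.40 ± 0.28 (SE; limma, adjusted p = 0.00206) and Cfap299 one of -2.24 ± 0.30 (adjusted p = 0.00325). Prdm8, a gene of the PRDM family, had -1.47 ± 0.38 (adjusted p = 0.0309), and did not pass when array 2 or 3 of either group was left out (adjusted p = 0.0713 to 0.0888). Bmp3 had -0.82 ± 0.33 and did not pass (adjusted p = 0.124), but did with the array number as a block (0.0347) and without vehicle array 3 (-1.21, adjusted p = 0.00536). By this test 3 of 4 neighbours of Fgf5 fell, against 17.3% of all genes that were lower. Cfap299 and Prdm8 lay 50925 and 58234 bases from Fgf5, and Antxr2 and Bmp3 lay 195531 and 586624 bases from it.

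Beside Fgf2, Cetn4 rose by 1.34 ± 0.19 (adjusted p = 0.0038) and Afg2a by 1.06 ± 0.15 (adjusted p = 0.00354), against 13.9% of all genes that were higher. Bbs12 had 0.52 ± 0.16 (adjusted p = 0.0584), and passed with array weights (0.034) and with a variance trend (0.0462). Nudt6, which overlaps Fgf2 in the annotation, had -0.35 ± 0.14 (adjusted p = 0.123). Only Nudt6 had a change opposite in sign to that of Fgf2, and it did not pass in the main fit or under any alternative. Bbs12, Afg2a and Cetn4 lay 15302, 15823 and 33014 bases from Fgf2. A cause of the directions beside Fgf2 and Fgf5 was not tested.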
